A study of Mus musculus with 6 samples.

Results

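The genes described here are 40 genes of the ATF4 stress response and of amino acid supply: its transcription factors and feedback regulators, the serine and one-carbon enzymes, other amino acid enzymes, amino acid transporters, stress hormones and mitochondrial proteases. They were taken from a fixed list of names, and the array probes were those whose accession belongs to a listed gene. Of the 40 genes, 39 had at least 1 probe (50 probes of 55681 on the array), and Pycr1 had none. Testing required a signal well above background on every array of one group or the other. This kept 38 genes (49 probes), out of 26256 genes and unnamed probes (30934 probes) kept on the whole array. Fgf21 was on none of the 6 arrays well above background and was not tested. Of the 38 tested genes, 37 were well above background on all 6 arrays; the remaining one, Lonp1, had no usable spot on no DOX replicate 3.

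Tongue RNA came from 3 mice given doxycycline (DOX) for 2 weeks and 3 mice not given it, each on its own single-colour Agilent array. All 6 mice carried a DOX-inducible Dek transgene (iDek) on a C57Bl6 background; the label calls it both ubiquitous and squamous cell-specific, and the driver and the animals' ages are not given in the sources used here. Dek is a chromatin protein, and DOX, a tetracycline antibiotic, turns such transgenes on. Mice without the transgene were not analysed here, so effects of DOX and of Dek induction cannot be told apart, and the carcinogen of the series title appears in no sample label. Levels are log2 signal minus the array's 75th percentile (0 is the 75th percentile), differences are DOX minus no DOX on that log2 scale with their SE (n = 3 and 3 unless stated), and adjusted p-values are from limma over all tested probes.

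Dek averaged 2.37 ± 0.08 with DOX and 2.20 ± 0.10 without it (SD, n = 3 each), a log2 difference of 0.17 ± 0.11 that did not pass the test (adjusted p = 0.456). Whether the Dek probe reads the transgene's message is not given, so it does not check the labels. All 10 keratinocyte markers and all 10 skeletal muscle markers searched for were well above background on all 6 arrays. Between 56.0% and 58.3% of probes were well above background on an array, and no spot was saturated. In whole tissue, fewer cells of a type and less RNA per cell cannot be told apart.

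When amino acids run short, unfolded proteins collect in the endoplasmic reticulum or mitochondria fail, kinases phosphorylate the translation factor eIF2, which slows protein synthesis but favours translation of the ATF4 message. ATF4 protein pairs with C/EBP partners on composite DNA elements and switches on genes for amino acid uptake and synthesis, tRNA charging and redox balance, while CHOP (Ddit3), Trib3 and Ppp1r15a shape or end the response. Because ATF4 is controlled largely at translation, its mRNA level is only a partial measure of its activity.

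In tongue with DOX, the mean was higher for 27 of the 38 tested genes and lower for 11, and it was higher for 49% of everything tested. None passed the test at an adjusted p under 0.05, where 0.404% of everything tested did. At an unadjusted p under 0.05, 15 were higher (9.05% of everything tested) and 2 were lower (9.58% of everything tested). The groups did not overlap for 24 genes (25.3% of everything tested). The 3 DOX values lay wholly above the 3 no DOX values for 19 genes (12.7% of everything tested) and wholly below for 5 (12.6%). The median difference was 0.18 (interquartile range -0.05 to 0.51), beside -0.01 over everything tested (-0.19 to 0.17). The 15 higher genes were mostly enzymes and transporters, among them Mthfd1l, Cth, Slc7a5, Slc3a2 and Slc7a11, with Atf3 and Gdf15, and the 2 lower ones were Nupr1 and Slc6a9.

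**Figure D1:**
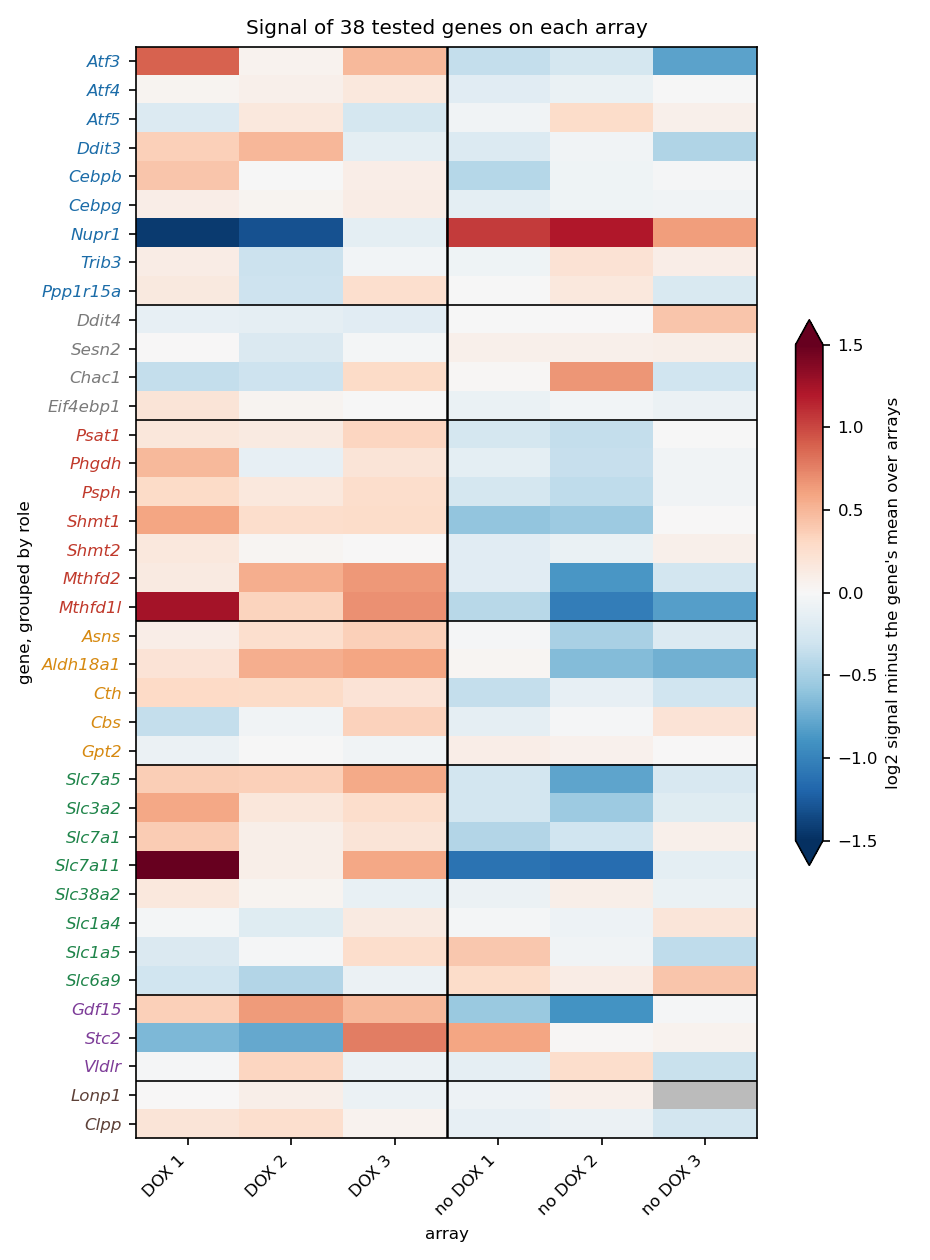
Log2 signal of each of the 38 tested genes minus that gene's mean over the arrays (colour, cut at 1.5 on either side), by array (columns, DOX left of the black line) and gene (rows, grouped by role; the colour of the name marks the role). The serine and one-carbon enzymes are higher on most DOX arrays and Nupr1 is lower; the grey cell is Lonp1 on no DOX replicate 3, which had no usable spot.

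The arrays of a group were not alike. Averaged over the 37 genes with a value on every array, the deviation from a gene's own mean was 0.16, 0.03 and 0.20 on DOX replicates 1 to 3, against -0.12, -0.17 and -0.10 on no DOX replicates 1 to 3. DOX replicate 1 held the highest value of 13 genes, DOX replicate 3 of 10 and DOX replicate 2 of 4, against 2, 4 and 4 for no DOX replicates 1 to 3. The DOX arrays thus lay above the no DOX arrays on average, with DOX replicate 2 nearest to them. The summed level of the 38 tested genes on a linear scale, with the array's 75th percentile as 1, lay the other way. It was 573 to 680 with DOX and 767 to 939 without it, with Lonp1 missing from the sum of no DOX replicate 3, the 767. This sum is weighted to bright genes. Nupr1, the brightest of the 38 on every no DOX array, had log2 levels of 6.27 to 7.56 with DOX and 8.34 to 8.91 without it. It makes up a large part of the no DOX sums, so they do not describe the genes as a whole. The summed level of the transcription factors and feedback regulators, which include Nupr1, was 302 to 414 with DOX and 548 to 714 without it. That of the serine and one-carbon enzymes was 37.6 to 46.9 with DOX and 28.9 to 35.7 without it.

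ATF4 and its C/EBP partners bind the letters TGATGNAA, a core of the amino acid response element. RefSeq promoter windows (GRCm38.p6, 250 bases before to 50 after a start) were found for 36 of the 40 genes; Slc1a5, Slc7a5, Cth and Eif4ebp1 were not matched. The letters occurred on either strand in a window of 10 of the 36 genes (27.8%) and of 1219 of all 27025 genes with a window (4.51%); counted by window, in 10 of 43 and in 1304 of 32851 (3.97%). The 10 were Atf3, Chac1, Trib3, Slc7a11, Asns, Fgf21, Nupr1, Slc1a4, Pycr1 and Vldlr. Stretches of 7 of them are shown because genes with the same letters differed in how their signal compared between the groups; capitals mark the match and each is read 5′ to 3′ along the gene.
Atf3, chr1:191183406-191183473, minus strand: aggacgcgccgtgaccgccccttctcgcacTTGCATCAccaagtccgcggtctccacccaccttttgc
Asns, chr6:7693195-7693262, minus strand: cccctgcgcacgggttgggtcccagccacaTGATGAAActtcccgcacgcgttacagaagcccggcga
Slc7a11, chr3:50443623-50443709, minus strand: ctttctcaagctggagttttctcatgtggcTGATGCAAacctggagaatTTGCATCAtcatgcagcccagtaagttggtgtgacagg
Nupr1, chr7:126625543-126625610, minus strand: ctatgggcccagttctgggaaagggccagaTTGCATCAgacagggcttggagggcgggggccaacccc
Chac1, chr2:119351019-119351086, plus strand: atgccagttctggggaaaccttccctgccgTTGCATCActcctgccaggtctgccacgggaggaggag
Trib3, chr2:152344011-152344076, minus strand: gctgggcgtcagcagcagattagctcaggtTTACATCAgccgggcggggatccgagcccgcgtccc
Slc1a4, chr11:20332680-20332747, minus strand: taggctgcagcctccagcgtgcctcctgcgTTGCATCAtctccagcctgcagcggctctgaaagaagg
Relative to the gene's start, the match began at position -110 in both Atf3 and Nupr1, -23 in Asns, -193 in Chac1, -4 in Slc1a4 and 14 in Trib3, and Slc7a11 held 2 matches, beginning at -66 and -47. Of these, Atf3, Asns and Slc7a11 had DOX values wholly above the no DOX values, Nupr1 had them wholly below, and the groups overlapped for Chac1, Trib3 and Slc1a4. A match describes the letters of the window and is not a binding site or a cause. The genes were listed for the ATF4 response and amino acid supply. Their share above that of all genes is therefore no test of that response in these mice.

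Among the transcription factors and feedback regulators, 6 of 9 had a higher mean, with a median difference of 0.17. Atf4, the central activator, had 6.78, 6.82 and 6.90 on DOX replicates 1 to 3, against 6.56, 6.64 and 6.73 on no DOX replicates 1 to 3. The groups did not overlap, but the difference was small (0.18 ± 0.10, adjusted p = 0.379, 95% interval -0.06 to 0.43). Its other probe gave 0.31 ± 0.09 (adjusted p = 0.169). Atf3, a stress-induced repressor and activator of the same family, had 1.40, 0.56 and 0.99 with DOX, against 0.15, 0.25 and -0.29 without it. Every DOX value of Atf3 was above every no DOX value, a 1.93-fold higher level (log2 0.95 ± 0.25, adjusted p = 0.135). Ddit3, which encodes the death-linked factor CHOP, had 1.31, 1.45 and 0.81 with DOX, against 0.75, 0.90 and 0.50 without it. DOX replicate 3 lay within the no DOX range, and the difference of 0.47 ± 0.20 did not pass (adjusted p = 0.270).

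Nupr1, a small stress-induced chromatin protein that ATF4 is known to switch on, went the other way. It had 6.27, 6.40 and 7.56 with DOX, against 8.75, 8.91 and 8.34 without it. All DOX values were lower, with DOX replicate 3 nearest to the no DOX arrays, and the difference of -1.92 ± 0.36 (3.79-fold lower, 95% interval -2.78 to -1.06) had the second smallest p of the 38 genes without passing (adjusted p = 0.0842). Without DOX replicate 3 it was -2.33 and passed (adjusted p = 0.0416), and with array weights it was -2.14 and passed (adjusted p = 0.0400).

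The C/EBP genes were slightly higher: Cebpb, an inflammatory and stress factor, by 0.34 ± 0.17 (adjusted p = 0.331), and Cebpg, a partner of ATF4, by 0.17 ± 0.09 (adjusted p = 0.370), with no overlap of the groups for either. Without no DOX replicate 1 Cebpb was higher by 0.21. Atf5, a factor of the mitochondrial stress response, differed by -0.20 ± 0.16, and by -0.34 without DOX replicate 2 and -0.12 without no DOX replicate 2. Trib3, a pseudokinase that restrains ATF4, differed by -0.17 ± 0.15 (adjusted p = 0.593, 95% interval -0.52 to 0.19), and by -0.27 without DOX replicate 1 and -0.05 without DOX replicate 2. Ppp1r15a, the stress-induced subunit that directs a phosphatase to eIF2, differed by 0.05 ± 0.19 (adjusted p = 0.916, 95% interval -0.39 to 0.50). The intervals for Trib3 and Ppp1r15a thus leave out a doubling or halving of signal.

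**Figure D2:**
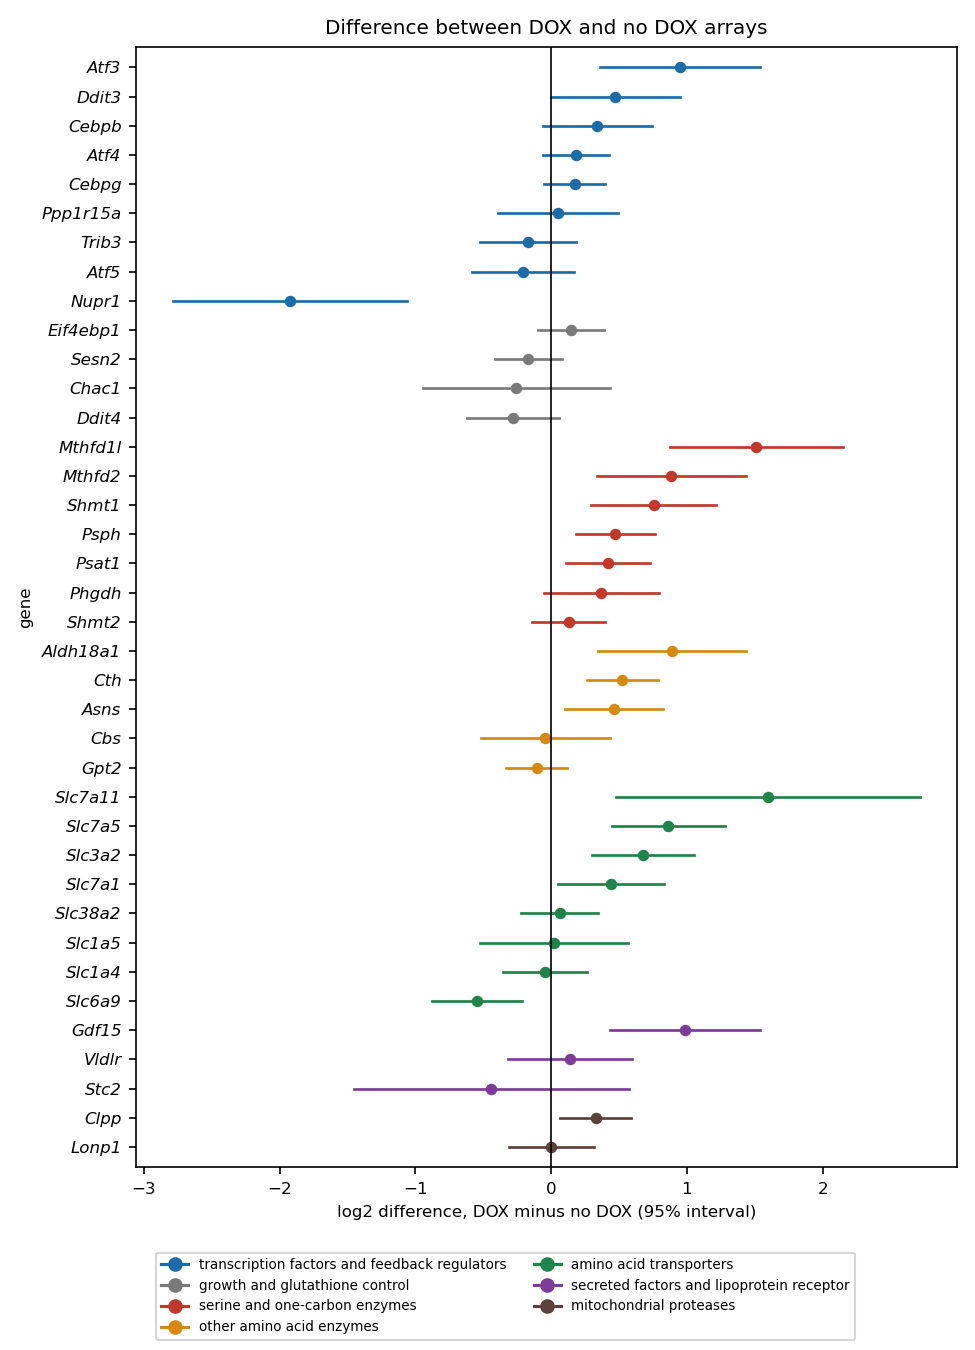
Log2 difference between DOX and no DOX arrays for the 38 tested genes (points) with the 95% interval of the fit (lines), ordered by role and size. Intervals of the serine and one-carbon enzymes lie mostly to the right of 0, that of Nupr1 lies between -2.78 and -1.06, and those of Trib3, Chac1, Sesn2 and Ddit4 span 0.

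Of the 4 genes that restrain growth or break down glutathione, 3 had a lower mean. Ddit4, an inhibitor of mTORC1, differed by -0.28 ± 0.14 (adjusted p = 0.343), and Sesn2, a leucine sensor upstream of mTORC1, by -0.17 ± 0.10 (adjusted p = 0.440); for both the DOX values lay below the no DOX values. Ddit4 was at -0.14 without no DOX replicate 3, and Sesn2 at -0.10 without DOX replicate 2. Chac1, which degrades glutathione and is a sensitive ATF4 target, differed by -0.26 ± 0.29, and its highest value, 2.75, was on no DOX replicate 2. Eif4ebp1, a brake on cap-dependent translation, differed by 0.15 ± 0.10 with every DOX value above every no DOX value, and by 0.09 without DOX replicate 1.

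The serine and one-carbon enzymes were higher with DOX in all 7 cases, where 49% of everything tested was, with a median difference of 0.47. At an unadjusted p under 0.05, 5 were higher (9.05% of everything tested), and 5 had DOX values wholly above (12.7%). Mthfd1l, the mitochondrial formate-producing enzyme, had 0.93, 0.02 and 0.37 with DOX, against -0.72, -1.35 and -1.14 without it. The groups did not overlap, the level was 2.85-fold higher (log2 1.51 ± 0.27, 95% interval 0.87 to 2.15) and the p was the smallest of the 38 genes, yet it did not pass over all probes (adjusted p = 0.0777). Its other probe gave 1.75 ± 0.27 (adjusted p = 0.0648). With array weights the Mthfd1l difference was 1.70 and passed (adjusted p = 0.0440).

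Mthfd2, the mitochondrial methylene-tetrahydrofolate dehydrogenase of proliferating cells, had -0.51, -0.09 and 0.01 with DOX, against -0.81, -1.51 and -0.92 without it. It was 1.84-fold higher (log2 0.88 ± 0.23, adjusted p = 0.134) with no overlap. Psph, which catalyses the last step of serine synthesis, had 2.33, 2.20 and 2.31 with DOX, against 1.78, 1.66 and 1.99 without it (0.47 ± 0.12, adjusted p = 0.132). Psat1, the aminotransferase of the step before, had 3.57, 3.54 and 3.72 with DOX, against 3.14, 3.04 and 3.39 without it (0.42 ± 0.13, adjusted p = 0.172). For Psph and Psat1 the DOX arrays were tightly grouped and no DOX replicate 3 came nearest to them. Phgdh, the first enzyme of the pathway, was higher by 0.37 ± 0.18 with overlapping groups, by 0.22 without DOX replicate 1, and by 0.42 ± 0.17 without overlap on its other probe.

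The serine hydroxymethyltransferases, which pass a carbon unit from serine to folate, are a cytosolic and a mitochondrial enzyme. Shmt1, the cytosolic enzyme, had -0.49, -0.82 and -0.80 with DOX, against -1.67, -1.63 and -1.08 without it (0.76 ± 0.19, adjusted p = 0.131). Its groups did not overlap, but its dimmer probe gave 0.23 ± 0.16 with overlap. Shmt2, the mitochondrial enzyme, differed by 0.13 ± 0.11 (adjusted p = 0.588), with 0.08 to 0.20 when 1 no DOX array was left out. The difference between the enzymes was not tested.

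**Figure D3:**
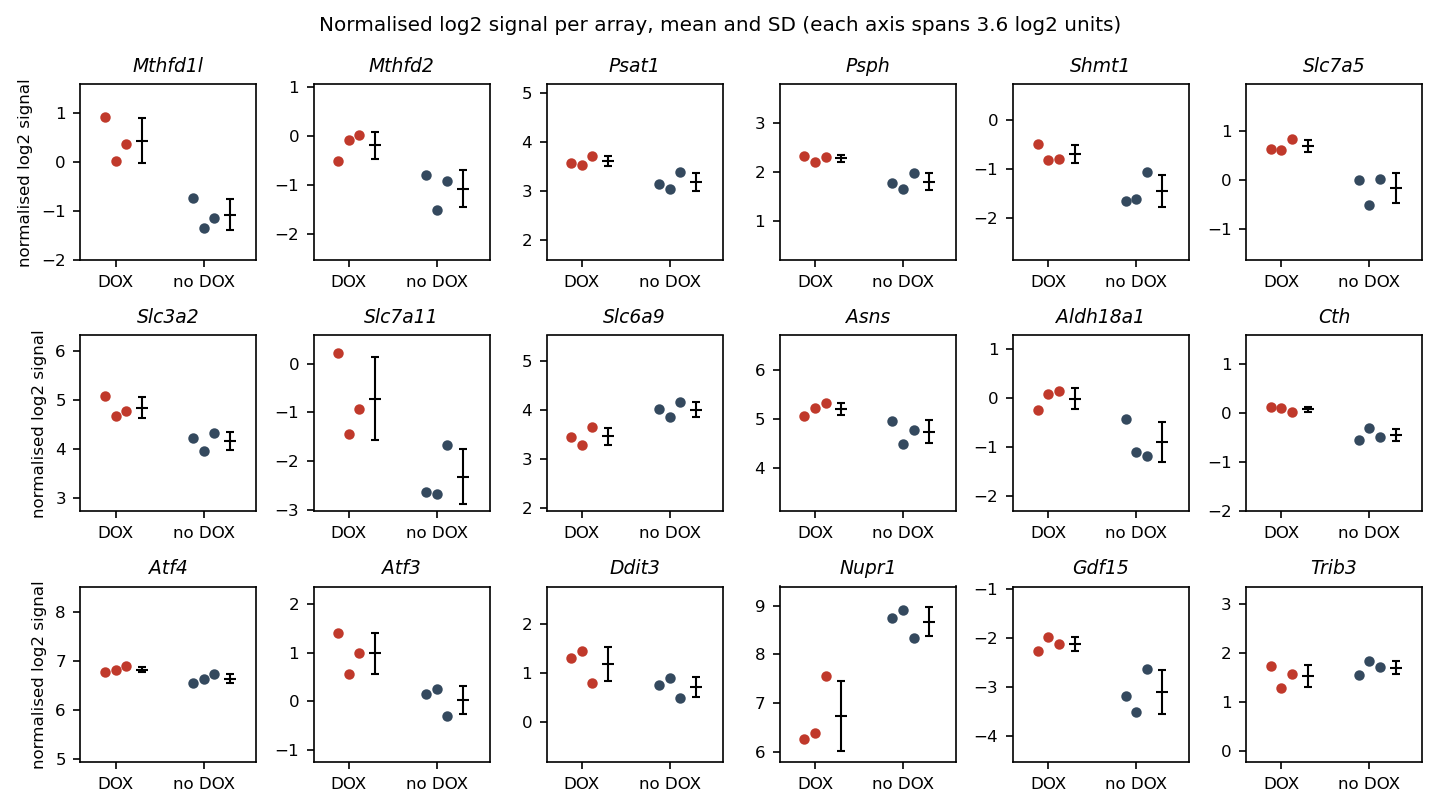
Normalised log2 signal of 18 genes on each array (points; DOX in red on the left, no DOX in dark blue on the right) with the mean and SD of 3 arrays (bars beside the points); every panel spans 3.6 log2 units. Mthfd1l, Slc7a5 and Cth show a gap between the groups, Nupr1 shows one in the opposite direction, and Trib3 overlaps.

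Of the other amino acid enzymes, 3 of 5 had a higher mean, each with all DOX values above the no DOX values (12.7% of everything tested). In 1 (Gpt2) all DOX values were below (12.6% of everything tested). Cth, which makes cysteine from cystathionine, had 0.11, 0.10 and 0.02 with DOX, against -0.55, -0.31 and -0.49 without it. Its arrays varied little within a group, and the difference of 0.53 ± 0.11 did not pass (adjusted p = 0.0943); its other probe gave 0.56 ± 0.10 (adjusted p = 0.0808). Aldh18a1, the first enzyme of proline synthesis, had -0.25, 0.09 and 0.14 with DOX, against -0.42, -1.10 and -1.17 without it (0.89 ± 0.23, adjusted p = 0.130). No DOX replicate 1 stood nearer to the DOX arrays than to the other no DOX arrays. Asns, asparagine synthetase and a standard reporter of the amino acid response, had 5.06, 5.21 and 5.32 with DOX, against 4.95, 4.49 and 4.76 without it (0.46 ± 0.15, adjusted p = 0.185). Its groups were narrowly apart, and its promoter window holds the letters TGATGAAA, shown above. Cbs, the enzyme before Cth in transsulfuration, differed by -0.04 ± 0.20, and Gpt2, a mitochondrial alanine aminotransferase, by -0.11 ± 0.09 without overlap.

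Of the 8 transporters, 6 had a higher mean, 4 of these without overlap (12.7% of everything tested), and 1 was lower without overlap (12.6%). Slc7a5, the light chain of the large neutral amino acid exchanger LAT1, had 0.64, 0.62 and 0.83 with DOX, against -0.01, -0.52 and 0.03 without it (0.86 ± 0.17, 1.82-fold higher, adjusted p = 0.0913). All DOX values were higher on this brighter probe. The dimmer probe had -1.68, -1.45 and -1.51 with DOX, against -1.71, -1.54 and -1.31 without it (-0.03 ± 0.14), with the groups mixed, and the mean of the probes gave a difference of 0.42. Slc3a2, the heavy chain shared by LAT1 and the cystine exchanger, had 5.09, 4.68 and 4.78 with DOX, against 4.23, 3.96 and 4.32 without it. It was 1.60-fold higher with no overlap (0.68 ± 0.16, adjusted p = 0.112).

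Slc7a11, the light chain of the cystine/glutamate exchanger, had 0.21, -1.43 and -0.94 with DOX, against -2.62, -2.66 and -1.66 without it. The groups did not overlap, but DOX replicate 1 was far above its group and no DOX replicate 3 came close to DOX replicate 2; the difference was 1.60 ± 0.47 (3.03-fold higher, adjusted p = 0.159). The difference was 0.97 with normexp background correction and 1.13 without DOX replicate 1. With the slide row as a block it was 2.53, a value that sets DOX replicate 1 alone against the no DOX arrays. Slc7a1, a carrier of arginine and lysine, was higher by 0.44 ± 0.16 (adjusted p = 0.225). Slc6a9, a glycine carrier, had 3.45, 3.30 and 3.66 with DOX, against 4.02, 3.86 and 4.16 without it. All its DOX values were lower (-0.55 ± 0.14, 1.46-fold lower, adjusted p = 0.131), and its other probe gave -0.57 ± 0.15.

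The neutral amino acid carriers showed little difference. Slc38a2, a sodium-coupled carrier of small neutral amino acids, differed by 0.06 ± 0.12 (adjusted p = 0.831), and Slc1a4, a carrier of alanine, serine and cysteine, by -0.05 ± 0.13 (adjusted p = 0.888). Slc1a5, a glutamine carrier, had 2.04, 2.24 and 2.51 with DOX, against 2.66, 2.20 and 1.87 without it on the brighter probe, and 0.10, 0.18 and 0.57 with DOX, against 0.86, 0.48 and 0.04 without it on the dimmer one. Both probes had mixed groups, with differences of 0.02 ± 0.23 and -0.17 ± 0.23, and on both the highest and the lowest value were those of no DOX arrays.

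**Figure D4:**
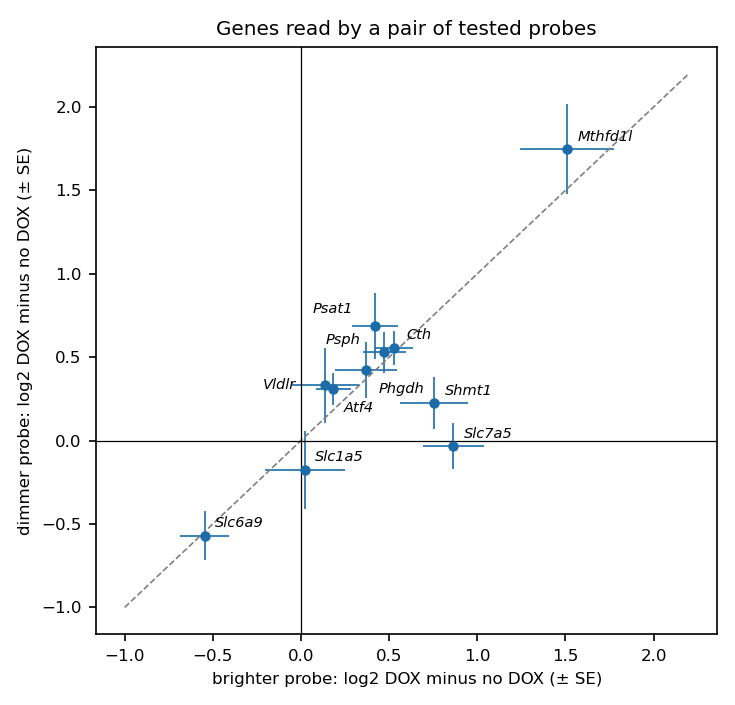
Log2 difference (DOX minus no DOX, ± SE) on the dimmer probe against that on the brighter probe for the 11 genes read by a pair of tested probes; the dashed line marks equal values. Of the 11 genes, 9 have the same sign on both probes, and Slc7a5 lies farthest from the line.

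Over the 11 genes with 2 tested probes, the probes had the same sign for 9 and opposite signs for Slc7a5 and Slc1a5. The gap between the probes' differences ran from 0.02 (Slc6a9) to 0.90 (Slc7a5). The parts of the transcripts that the probes read are not given in the sources used here.

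Gdf15, a circulating stress hormone, was the one gene of the tested secreted and receptor genes whose groups did not overlap. It had -2.27, -1.98 and -2.13 with DOX, against -3.18, -3.52 and -2.63 without it. The DOX arrays were close together and all higher (0.99 ± 0.23, 1.98-fold, adjusted p = 0.113), and the difference was 0.38 with normexp background correction. Stc2, a secreted glycoprotein of the stress response, differed by -0.44 ± 0.42, and DOX replicate 3 (1.19) lay above every no DOX array while DOX replicates 1 and 2 (-0.26 and -0.35) lay below them all; the difference was -0.94 without DOX replicate 3 and -0.17 without DOX replicate 2. Vldlr, a lipoprotein receptor induced in the response, differed by 0.14 ± 0.19, with 0.0045 when no DOX replicate 3 was left out and 0.30 when no DOX replicate 2 was. Of the mitochondrial proteases, Clpp was higher by 0.33 ± 0.11 with no overlap (adjusted p = 0.193), and Lonp1 differed by 0.00 ± 0.13 on 3 DOX and 2 no DOX arrays.

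Neighbouring genes of the pathway were read from lists made for the purpose. Of everything tested, 18.6% were at an unadjusted p under 0.05 in either direction (9.05% higher and 9.58% lower), and the groups did not overlap for 12.7% that were higher. Of 20 cytosolic aminoacyl-tRNA synthetases, which charge tRNA and include many ATF4 targets, 18 had a higher mean and 0 passed; the median was 0.24. Their groups did not overlap for 10 (12.7% of everything tested), and 8 were higher at an unadjusted p under 0.05 (9.05% of everything tested). Wars was higher by 0.43 ± 0.11 (adjusted p = 0.136), Nars by 0.42 ± 0.11 and Tars by 0.36 ± 0.11. Of 13 genes for the eIF2 kinases, eIF2 and its exchange factor eIF2B, 8 had a higher mean and 0 passed (3 higher and 2 lower at an unadjusted p under 0.05, where 18.6% of everything tested was). Eif2b3, an exchange factor subunit, was higher by 0.48 ± 0.10 (adjusted p = 0.0991) and Eif2s1, the phosphorylated subunit of eIF2, by 0.37 ± 0.14, while Eif2ak2, the interferon-induced kinase PKR, differed by -0.61 ± 0.15 (adjusted p = 0.129).

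Among 11 tested other one-carbon and glycine genes, 8 had a higher mean and 0 passed. At an unadjusted p under 0.05, 3 were higher and 1 lower, where 18.6% of everything tested was. Mthfd1, the cytosolic trifunctional enzyme, was higher by 0.48 ± 0.10 (adjusted p = 0.0965), Gart, of purine synthesis, by 0.50 ± 0.12 and Sfxn1, a mitochondrial serine carrier, by 0.41 ± 0.12. Of 14 tested other amino acid transporters, 8 had a higher mean and 0 passed (3 higher and 1 lower at an unadjusted p under 0.05, where 18.6% of everything tested was). The smallest p were those of Slc36a1 (0.37 ± 0.11), Slc43a1 (-0.65 ± 0.24) and Slc7a6 (0.42 ± 0.16).

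Of 12 genes of mTORC1 amino acid sensing, 9 had a lower mean and 0 passed. At an unadjusted p under 0.05, 2 were lower, a share near the 18.6% of everything tested; they were the sestrin genes Sesn3 (-0.57 ± 0.15) and Sesn1 (-0.38 ± 0.12), and Castor1 was at -0.34 ± 0.21. Of 12 autophagy genes, 7 had a lower mean and 0 passed (1 at an unadjusted p under 0.05, a smaller share than the 18.6% of everything tested), with Atg7 at -0.34 ± 0.11, Atg3 at 0.20 ± 0.11 and Wipi1 at -0.33 ± 0.18. Of 10 genes for mitochondrial chaperones, proteases and stress signalling, 9 had a higher mean and 0 passed (1 at an unadjusted p under 0.05): the chaperonin gene Hspd1 was higher by 0.46 ± 0.12 (adjusted p = 0.136), Hspe1 by 0.42 ± 0.23 and Spg7 by 0.17 ± 0.10.

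Chaperone and sensor genes of the other arms of the unfolded protein response, driven by ATF6 and XBP1, had the highest median of the 8 lists, 0.81. Of 16, 15 had a higher mean, and Creld2 alone rose (log2 1.93 ± 0.18, adjusted p = 0.0219). The groups did not overlap for 12 (12.7% of everything tested), and 13 were higher at an unadjusted p under 0.05 (9.05% of everything tested). Hsp90b1 (0.93 ± 0.13, adjusted p = 0.0511) and Hyou1 (1.38 ± 0.19, adjusted p = 0.0521) did not pass. The difference between this list and the ATF4 genes was not tested.

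**Figure D5:**
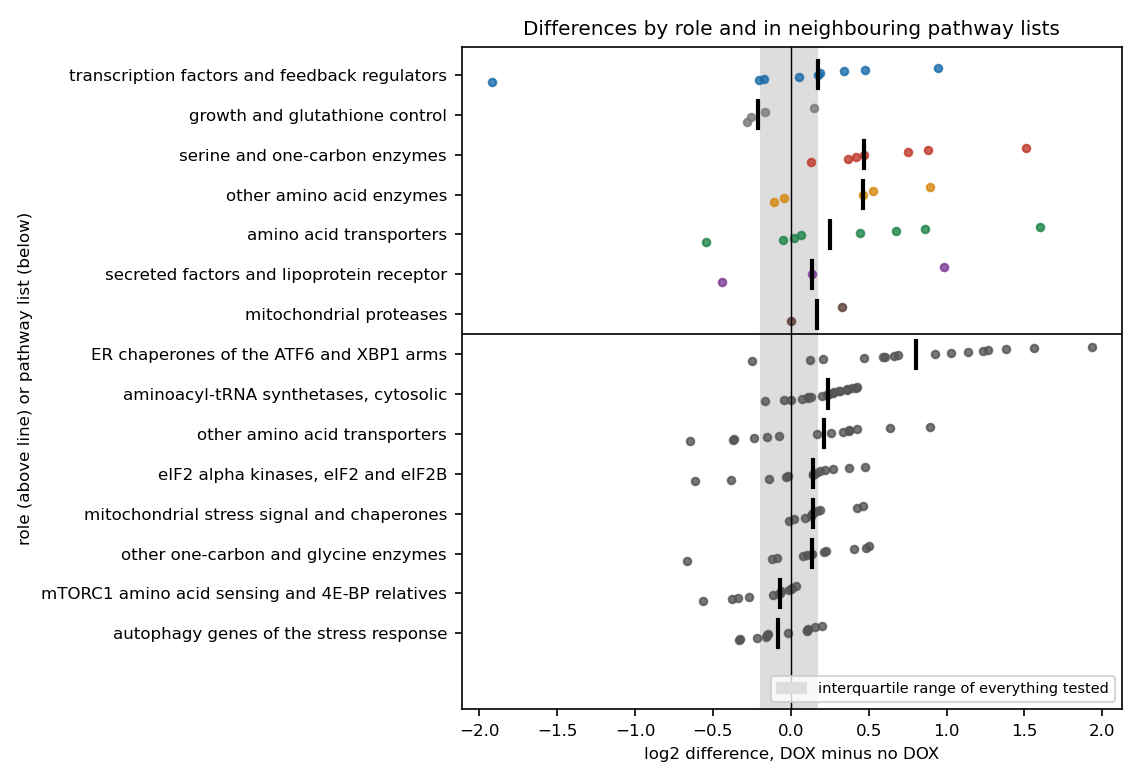
Log2 difference between DOX and no DOX arrays (x axis) for each tested gene (points) of the 7 roles above the line and of 8 neighbouring pathway lists below it; black bars are medians and the grey band is the interquartile range of everything tested (-0.19 to 0.17). The ER chaperone median (0.81) lies farthest to the right, and those of the serine enzymes (0.47), other amino acid enzymes (0.46), transporters (0.25), synthetases (0.24) and other transporters (0.21) also lie right of the band, while that of growth and glutathione control (-0.21) lies left of it.

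The cell types that the tissue could hold were read from marker lists. For 11 tested markers of salivary and lingual gland acinar cells, the mean was higher in 6 and lower in 5, and 0 passed. At an unadjusted p under 0.05 there were 6, Car6 included (18.6% of everything tested), and Prol1 was nowhere well above background. Their summed level, with the array's 75th percentile as 1, was 2661 to 3020 with DOX and 1821 to 2471 without it. Bhlha15, which organises secretory cells, was higher by 1.82 ± 0.28 (adjusted p = 0.0648), Lpo by 2.55 ± 0.46 and Car6, well above background on 2 of the 3 no DOX arrays, by 4.16 ± 0.96. Bpifa2 was at 6.51 ± 1.64, Amy1 at 2.96 ± 1.13 and Bpifb1 at 3.02 ± 1.71, all without overlap. Bpifb1 had 9.47, 9.65 and 9.43 with DOX, against 8.10, 2.16 and 9.24 without it. Amy1 had 8.69, 9.28 and 8.74 with DOX, against 6.48, 3.25 and 8.11 without it. The acinar sums are weighted to such bright genes and do not describe the list as a whole. Dcpp1 was at -0.76 ± 0.29 and Pigr at -0.39 ± 0.18, both without overlap. Aqp5 was at -0.98 ± 0.43, Muc5b at -0.28 ± 0.17 and Smgc (listed as Muc19) at -0.60 ± 0.37. Of 4 tested B and plasma cell markers, 3 had a higher mean and 0 passed, and 3 were at an unadjusted p under 0.05 (18.6% of everything tested). Their summed level was 2.40 to 3.99 with DOX and 0.648 to 1.28 without it. Derl3, the brightest of the 4 on every array, had log2 levels of 1.07 to 1.88 with DOX and -1.34 to -0.03 without it. It makes up most of the DOX sums, so the sums do not describe the list as a whole. Derl3 (2.36 ± 0.39) and Mzb1 (0.59 ± 0.17) were higher, Cd79b was at -0.85 ± 0.29, and Cd79a, Ms4a1 and Tnfrsf17 were nowhere well above background.

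Of 10 macrophage markers, 9 had a higher mean and 0 passed. At an unadjusted p under 0.05 there were 4, Fcgr1 included (18.6% of everything tested). The smallest p were those of Lyz2 (1.03 ± 0.17), Lyz1 (1.09 ± 0.22) and Fcgr1 (1.05 ± 0.30). Fcgr1 was well above background on 2 of the 3 no DOX arrays and was kept for testing only through the DOX arrays. The summed level of the list was 32.7 to 39.6 with DOX and 24.0 to 26.6 without it. Of 8 tested neutrophil markers, 5 had a higher mean and 0 passed. At an unadjusted p under 0.05 there was 1, a smaller share than the 18.6% of everything tested. Ltf was at 1.51 ± 0.58, S100a9 at 1.65 ± 0.75 and Retnlg at -1.49 ± 0.72. Retnlg was well above background on 1 of 3 DOX arrays and was kept for testing only through the no DOX arrays. Ngp and Mmp8 were nowhere well above background. The summed level of the list was 1459, 527 and 351 on DOX replicates 1 to 3, against 336, 295 and 431 on no DOX replicates 1 to 3, so DOX replicate 1, which also held the highest Atf3 and Slc7a11 signal, stood apart. The part of these cell type markers in the differences of the ATF4 genes was not tested.

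For other cell types the summed levels of the groups overlapped. This held for keratinocytes (2122 to 2755 with DOX and 1732 to 2429 without it), skeletal muscle (2643 to 3405 and 2518 to 3377) and adipocytes (116 to 173 and 105 to 158, with Lep nowhere well above background). It also held for fibroblasts (126 to 194 and 148 to 174), endothelial cells (23.9 to 27.9 and 26.2 to 30.3) and Schwann cells (75.6 to 83.6 and 78.2 to 115). Within these lists 1 endothelial marker, Bcl6b (-1.81 ± 0.21, adjusted p = 0.0327), and 1 adipocyte marker, Adrb3 (-1.48 ± 0.18, adjusted p = 0.0406), fell. Over everything tested, 0.404% passed in either direction. The other markers of these 2 lists did not pass. The mean was higher for 6 of 9 tested adipocyte markers (median difference 0.04) and for 4 of 8 endothelial markers (median difference -0.16). Of 10 T and NK cell markers, 8 had a lower mean, 5 of them without overlap (12.6% of everything tested). Cd247 and Cd8a are included in both counts and in the median difference, which was -0.44. They also enter the mean deviation of the list. This was 0.01, -0.36 and -0.36 on DOX replicates 1 to 3, against 0.37, 0.13 and 0.22 on no DOX replicates 1 to 3. It therefore does not show a separation of the groups apart from these genes. The summed level overlapped (12.2 to 14.0 with DOX and 12.6 to 13.5 without it). Ccl5 was at -0.71 ± 0.14 (adjusted p = 0.0915). Cd247 and Cd8a were kept for testing only through the no DOX arrays, being well above background on none of the DOX arrays, so their signal had to differ and no test is given. Cd247 averaged -5.90 with DOX and -4.39 without it, at least 1.24-fold lower, and Cd8a -5.86 with DOX and -3.92 without it, at least 1.72-fold lower. These bounds are set by the lowest signal that counted as well above background. The part of T and NK cell markers in the differences of the ATF4 genes was not tested.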

How the data were processed

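Per the labels' protocols, tongue RNA was labelled with Cy3 and hybridised to single-colour Agilent arrays. The deposited spot values are intensity, from Feature Extraction 11.5.1.1 according to the submitters' processing notes, with background already subtracted. The authors' value table, also an intensity, is that signal times 1 factor per array (3.70 to 3.99) by an unstated rule. The medians of its columns were 90.01, 97.5 and 93.7 on DOX replicates 1 to 3, against 102.5, 94.2 and 92.7 on no DOX replicates 1 to 3. The other deposited columns used were spot flags, as 0 or 1. The treatment label set the groups and the titles gave the replicate numbers. The labels describe separate mice and do not say whether these shared litters.

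Outlier spots (146 to 195 per array) were dropped, log2 signals averaged per probe, and the 75th percentile of an array's non-control probes subtracted. RefSeq symbols of GRCm38.p6 were matched by accession (28331 probes matched, 27350 did not). Tests used limma (version 3.58.1, under R 4.3.3; lmFit and eBayes, two-sided), adjusted by Benjamini-Hochberg over 30934 probes, and a gene's brightest tested probe stood for it. The fit was tested on simulated data. All 6 arrays shared 1 slide and 1 scan; DOX replicates 2 and 3 lay in row 2 of the slide and the other 4 arrays in row 1.

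Genes, roles and lists were chosen with earlier results of these data known. Every listed gene is named. Values on every array are given for the 15 with the smallest p, Atf4, Ddit3, the 5 with the largest differences and genes whose probes differ in sign. Up to 3 genes with the smallest p are named from each other list, and every tested marker from the acinar list. With 3 arrays a group, precision is limited by their number.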

Additional observations from a re-analysis of the deposited data

How the results depend on the processing

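Among the 38 genes, 2 passed with array weights (Nupr1 and Mthfd1l), 0 to 1 when an array was left out (Nupr1 without DOX replicate 3), and 0 under each other setting: normexp, quantile normalization, median centring, the value table, no detection filter, detection on all 6 arrays, trend and robust settings, the mean of a gene's probes, the replicate block and the slide row as a block, the last chosen after seeing the data. Groups did not overlap for 21 to 24 genes under settings with all arrays and for 24 to 27 with an array left out. Smaller groups fail to overlap more readily, and the share over everything tested is not given for these settings. The counts with an array left out therefore cannot be compared with those of all arrays. The median of 0.18 became 0.24 with the mean of a gene's probes and 0.24 with the slide row as a block, and was 0.18 to 0.23 with an array left out; the cause was not tested. Dek was 0.11 to 0.22 with an array left out. The deviations of same-numbered arrays had correlations of -0.115, -0.00917 and 0.0102, and those of other pairs ran from -0.136 to 0.149. With 3 arrays a group, these values cannot settle whether the numbers pair the mice. With the replicate block the smallest adjusted p was 0.0985 and the median 0.18. Signs turned only for the genes given next, none of which passed under any setting. Lonp1 was -0.0130 with normexp, -0.0537 with quantile normalization and -0.0228 with array weights, and Slc1a5 was -0.0105 with quantile normalization, -0.0561 with array weights, -0.0755 with the mean of its probes and -0.20 with the slide row as a block, where Trib3 was 0.0282. With an array left out, Ppp1r15a was -0.0604 to 0.22, Cbs -0.23 to 0.13, Slc38a2 -0.0020 to 0.13, Slc1a4 -0.13 to 0.0292, Slc1a5 -0.17 to 0.23, Lonp1 -0.0710 to 0.0743 and Chac1 -0.47 to 0.0137. Over everything tested, 73 were called higher and 33 lower. These counts were 166 and 80 with normexp, 135 and 57 with trend and robust settings, 294 and 190 with array weights, 23 and 9 with the slide row as a block, 0 and 1 with no detection filter, 0 and 0 with the replicate block, and between 0 and 36 and between 0 and 16 with an array left out. Row 1 held only 1 DOX array, which also enters the reported values, so no independent value within a row could be had; with row as a block, Cebpb was at 0.58, Phgdh at 0.67, Mthfd2 at 0.57 and Stc2 at -0.89. Shmt1 was 0.49 with the mean of its probes. The value table gives the main values by construction. Normexp used the median signal, because the mean signal is not among the columns used here.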
